A study of Mus musculus with 10 samples.

Results

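Alveolar type 1 cell genes were followed in mouse lung through 9 marker genes of that cell, Ager, Aqp5, Hopx, Pdpn, Cav1, Rtkn2, Akap5, Emp2 and Clic5. They, and the lists of other genes below, were chosen by name with earlier results of these data known. A probe was counted where the name in the scanner files, or the current symbol behind its identifier, was one of the 9. This gave 15 of 41174 probes and 9 of 27670 genes. The lungs came from 10 female BALB/c mice that were 6 to 8 weeks old when obtained. In the smoke group, 5 mice breathed mainstream smoke from 3R4F reference cigarettes without filters, in a whole body chamber, over 8 weeks. In the room air group, 5 mice breathed room air over the same 8 weeks. RNA of whole lung was read on whole genome arrays, 1 array per mouse, to ask which genes of the lung differ after exposure to smoke.

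The alveolar type 1 cell is a very thin, wide epithelial cell that covers most of the gas exchange surface and lies against the capillary. It shares the alveolus with the cuboidal type 2 cell, which makes surfactant and can give rise to type 1 cells. Type 1 cells are known for water channels, for many caveolae and for a high level of the receptor Ager, but several of their markers, Cav1 among them, are also made by endothelium and mesothelium.

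The labels name 1 dye, Cy3, while the scanner files hold a red and a green channel. On the log2 scale of the processed signal, the Y-linked genes Ddx3y, Eif2s3y and Kdm5d averaged 2.97, 2.76 and 4.06 in red and 9.92, 9.76 and 8.12 in green, and the mice were female. The lung genes Sftpc and Scgb1a1 averaged 21.89 and 20.29 in red and 15.50 and 13.57 in green. Red was therefore taken as the lung and green as a reference RNA, and every direction given here rests on that. Values are log2 ratios of red over green unless a sentence names the red channel, and a difference is smoke minus room air. The groups are those of the scanner files. In the authors' table of processed values, each column followed the array with the same number in the other group (r from 0.843 to 0.969 over 24229 spots) more closely than its own array (r from 0.0634 to 0.771), so signs taken from that table run the other way for most genes named here, as for Marco, a macrophage gene, at 2.60 by the scanner files and -2.58 by the table. If the scanner files hold the exchanged labels, every direction given here turns. Of 5 genes known to be induced by aromatic compounds such as those in smoke, Cyp1b1, Nqo1 and Ahrr rose by 3.07, 2.08 and 1.96 with the groups of the scanner files (adjusted p = 1.08e-07, 2.49e-07 and 1.76e-06), while by the table they differed by -1.73, -1.11 and -1.56. Cyp1a1 differed by 1.09 (adjusted p = 0.254) and by -1.84 in the table, and Tiparp by -0.06 (adjusted p = 0.838) and by 0.13 in the table. The 3 genes that passed are higher in the smoke group as the scanner files name it and lower as the table names it, and the deposited files do not say where the exchange arose. The share of spots well above background in red lay between 64.9% and 77.5% per array.

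With smoke, Cav1 and Emp2 fell, and no member rose. These were 2 of 9 members, where 3.27% of all 27669 genes tested fell and 4.94% rose (limma, adjusted p under 0.05). The same shares of all genes stand beside the counts of every list below, outside the fit with the slide as a block. A fit with the slide as a block, given below, also put Akap5 and Aqp5 past the threshold, so that 4 members fell, where 6.3% of all genes fell. The members' median difference was -0.17, against -0.00 for all genes, and 7 of 9 members were lower with smoke, as were 14362 of 27669 genes. In Cav1, Emp2 and Rtkn2, 3 of 9 members, every smoke lung lay below every room air lung, which held for 3.25% of all genes. All 9 were well above background in red on all 10 arrays, read by the brightest probe of each gene. In whole lung, fewer cells of a type and less RNA per cell cannot be told apart. All smoke arrays sat at place 1 and all room air arrays at place 2 of their slides, so place and exposure cannot be told apart either.

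The mean log2 ratio of the 9 members was 3.96, 3.93, 4.05, 3.77 and 3.94 in room air replicates 1 to 5 and 3.78, 3.79, 3.78, 3.48 and 3.80 in smoke replicates 1 to 5, the order used for every series of values here. Room air replicate 4 lay within the range of the smoke lungs, and smoke replicate 4 was the lowest of all 10. The plot of the members by lung shows the groups apart for Cav1, Emp2 and Rtkn2 and overlapping for the rest.

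**Figure D1:**
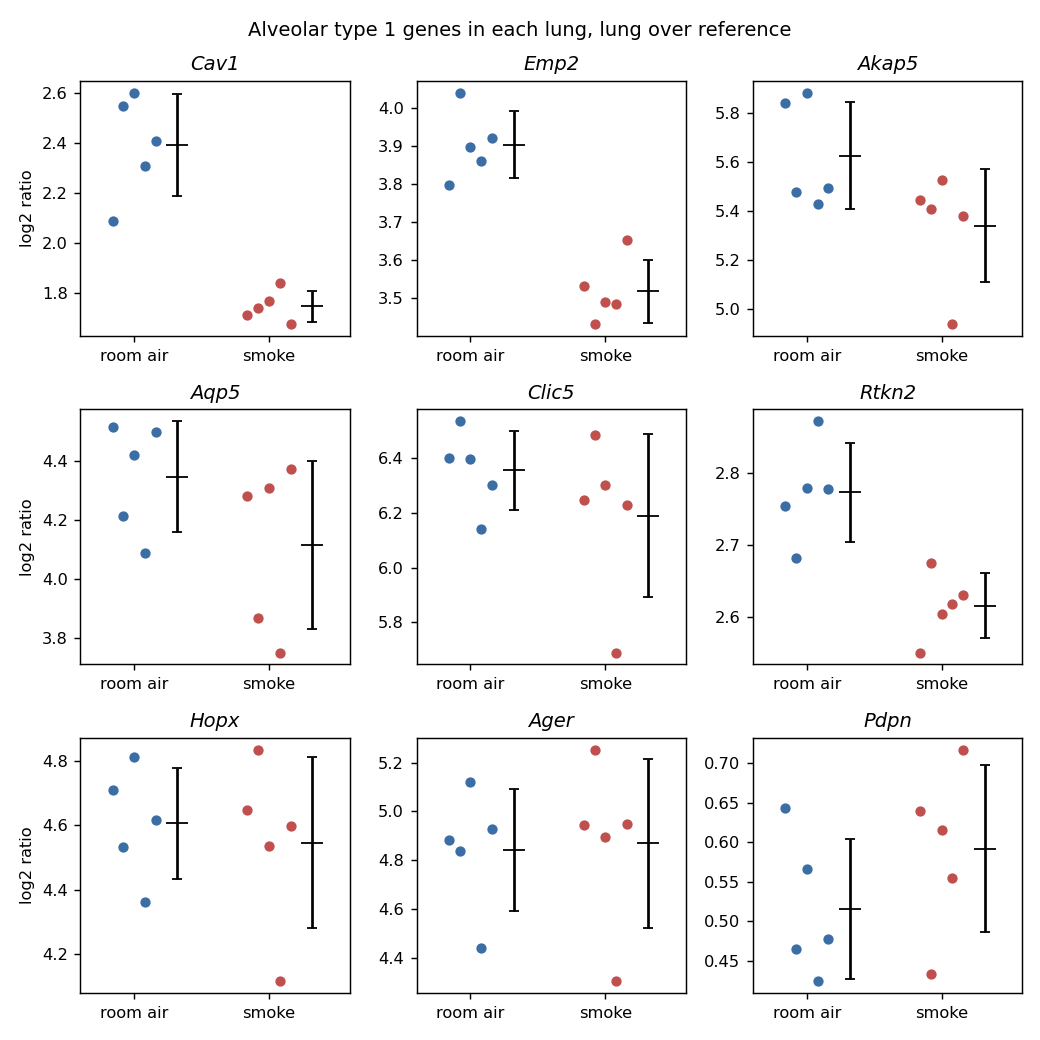
Log2 ratio of lung over reference (vertical axes, each with its own range) of the 9 alveolar type 1 genes in 5 room air lungs (blue) and 5 smoke lungs (red), by the brightest probe of each gene. Points are lungs and black bars are the mean and SD; for Cav1 all smoke lungs, at 1.68 to 1.84, lie below all room air lungs, at 2.09 to 2.60.

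Cav1 encodes caveolin 1, the main coat protein of caveolae, small flask-shaped pits of the plasma membrane. Its brighter probe read 2.09, 2.55, 2.60, 2.31 and 2.41 in room air and 1.71, 1.74, 1.77, 1.84 and 1.68 with smoke. The groups did not overlap, the smoke lungs lay close together, and room air replicate 1 was the room air lung nearest to them. Cav1 fell by 0.64 on the log2 scale (SE 0.09, 95% confidence interval -0.84 to -0.45), to 0.640 of the room air level, with an adjusted p of 0.0011 by limma. The group means were 2.39 ± 0.20 and 1.75 ± 0.06 (SD, 5 lungs each). Each slide held the smoke and the room air array of 1 number, and Cav1 was lower with smoke on 5 of 5 slides, by differences of -0.38, -0.81, -0.83, -0.47 and -0.73.

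The second Cav1 probe, a dimmer one, read 0.37, 1.27, 1.48, 1.33 and 1.26 in room air and 0.75, 0.71, 0.60, 1.01 and 0.84 with smoke. Room air replicate 1 was the lowest of all 10 lungs here, and the other room air lungs were above every smoke lung. Its difference of -0.36 (SE 0.18) did not pass the test (adjusted p = 0.333). In the red channel alone at the 75th percentile the dimmer probe differed by -0.60 (adjusted p = 0.150) and the brighter by -0.51. With the mean of its probes Cav1 passed, at -0.50 (adjusted p = 0.0342). The first 30 of the 60 bases of both probes are shown because they read the same gene and only the brighter passed the test.
Cav1 brighter probe: atgtctgttctccctagatactcagtttta
Cav1 dimmer probe: gtgacaaaatattggttttaccgcttgttg

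Of 8 other genes for proteins of caveolae, 4 fell and none rose, with a median difference of -0.34, where 3.27% of all genes fell. Cavin2, a coat protein of caveolae, read 2.75, 3.04, 3.02, 3.04 and 2.98 in room air and 2.16, 2.36, 2.30, 2.31 and 2.02 with smoke. Its groups were apart, and it fell by 0.74 (SE 0.08, adjusted p = 0.00023). Ehd2, an ATPase at the neck of caveolae, fell by 0.49, and the coat proteins Cavin1 and Cavin3 fell by 0.42 and 0.26, each with the groups apart. Cav2, which assembles with caveolin 1, differed by -0.46 without passing the test (adjusted p = 0.0768) and was past the threshold with the slide as a block (adjusted p = 0.0389), with the mean of all its probes (-0.34, adjusted p = 0.0152) and without room air replicate 1 (-0.57, adjusted p = 0.00869). The muscle forms Cav3 and Cavin4 differed by 0.04 and 0.03 but turned to -0.07 and -0.08 with median centring, and Pacsin2, a membrane-bending protein, differed by -0.03, none of them past the threshold. With median centring in place of loess the calls of Cavin1, Cavin3 and Ehd2 were lost at differences of -0.42, -0.36 and -0.61 (adjusted p = 0.264, 0.125 and 0.0677). With the red channel alone at the 75th percentile the calls of all 4 were lost, at -0.30 for Cavin1, -0.54 for Cavin2, -0.22 for Cavin3 and -0.59 for Ehd2 (adjusted p from 0.0522 to 0.333). Cavin1 also lost its call with the scanner's own log ratio (-0.39, adjusted p = 0.128) and with the mean of all its probes (-0.24, adjusted p = 0.0883).

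Emp2, epithelial membrane protein 2, is a membrane protein of the Pmp22 family. Its log2 ratio was 3.80, 4.04, 3.90, 3.86 and 3.92 in room air and 3.53, 3.43, 3.49, 3.48 and 3.65 with smoke. The groups did not overlap, and smoke replicate 5 came nearest to room air. Emp2 fell by 0.39 (SE 0.06, 95% confidence interval -0.51 to -0.26), to 0.766 of the room air level, with an adjusted p of 0.00196 by limma. It was lower with smoke on 5 of 5 slides, by -0.27, -0.61, -0.41, -0.38 and -0.27. Its call was lost with median centring in place of loess (-0.42, adjusted p = 0.121) and with ratios scaled between arrays (-0.21, adjusted p = 0.674), whereas Cav1 passed with both (-0.65, adjusted p = 0.0371, and -0.55, adjusted p = 0.0186).

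Of the 3 relatives of Emp2, 1 rose and 1 fell. Pmp22, a myelin protein also made in lung, read 2.90, 3.08, 2.94, 3.04 and 3.00 in room air and 2.51, 2.57, 2.36, 2.47 and 2.29 with smoke. Emp3 went the other way, at -0.52, -0.93, -0.60, -0.64 and -0.59 in room air and 0.02, -0.32, 0.04, 0.02 and 0.05 with smoke. Both genes had their groups apart: Pmp22 fell by 0.55 (adjusted p = 0.000298) and Emp3 rose by 0.62 (adjusted p = 0.00166). Emp1 differed by -0.07 (adjusted p = 0.806) and turned to 0.01 with the red channel alone at the 75th percentile. Pmp22 lost its call with ratios scaled between arrays (-0.43, adjusted p = 0.0801) and Emp3 with median centring (0.52, adjusted p = 0.152).

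**Figure D2:**
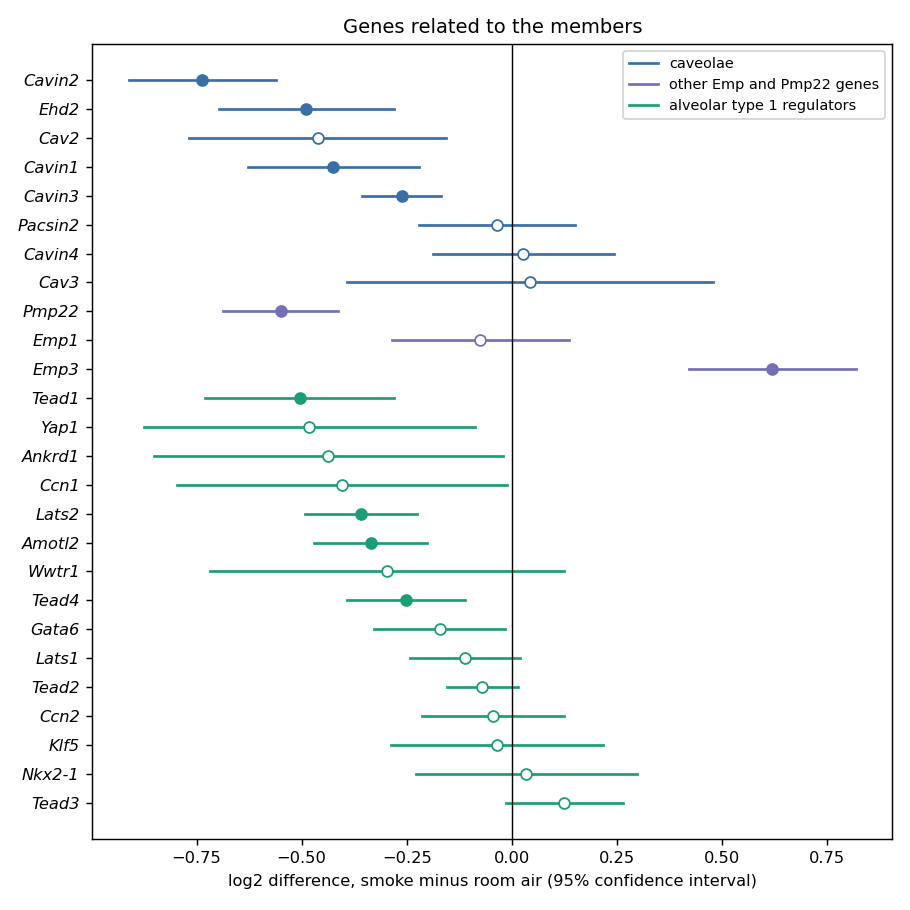
Log2 difference, smoke minus room air (horizontal axis), of other genes of caveolae (blue), relatives of Emp2 (purple) and regulators of the type 1 cell (green), with 95% confidence intervals as bars; filled points passed the test. Cavin2 lies at -0.74 and Tead1 at -0.50, and Emp3 lies on the other side at 0.62.

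Promoter sequence from RefSeq was at hand for 8 of the 9 members, at 10 start sites, and is shown for the 2 members that fell and for Ager, 1 of those that did not. Each run is the 250 bases before the start on the gene's own strand, in build GRCm38.p6, at chr6:17306085-17306334 (plus strand) for Cav1, chr16:10313969-10314218 (minus strand) for Emp2 and chr17:34597600-34597849 (plus strand) for Ager. Capitals mark the GC box letters GGGCGG or, on the other strand, CCGCCC.
Cav1: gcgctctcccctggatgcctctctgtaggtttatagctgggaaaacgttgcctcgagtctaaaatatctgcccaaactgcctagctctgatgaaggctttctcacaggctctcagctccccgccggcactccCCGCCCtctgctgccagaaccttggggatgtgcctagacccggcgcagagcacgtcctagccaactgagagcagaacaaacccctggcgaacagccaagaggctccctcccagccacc
Emp2: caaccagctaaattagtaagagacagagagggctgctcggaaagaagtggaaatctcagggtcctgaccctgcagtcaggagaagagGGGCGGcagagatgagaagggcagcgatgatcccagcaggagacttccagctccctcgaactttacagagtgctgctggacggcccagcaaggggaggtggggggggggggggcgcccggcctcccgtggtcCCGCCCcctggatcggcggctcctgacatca
Ager: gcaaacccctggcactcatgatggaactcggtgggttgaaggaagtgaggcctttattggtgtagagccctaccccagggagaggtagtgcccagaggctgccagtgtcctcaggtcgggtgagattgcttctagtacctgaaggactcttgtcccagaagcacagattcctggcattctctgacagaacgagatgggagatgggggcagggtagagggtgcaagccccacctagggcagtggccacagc
The GC box letters were found 1 time for Cav1, 2 times for Emp2 and 0 times for Ager. Members that did not fall held them as well, Akap5 3 times and Aqp5 and Clic5 2 times each, while the second start of Cav1, both starts of Hopx and Pdpn held none. In all, 32.7% of 32851 promoters hold them in a window of this length. They were searched after the letters GGAATG of TEAD factors and CAAGTG of NKX2 factors, which occurred on neither strand of any of the 10 windows and occur in 12.6% and 11.6% of all promoters. Matches here are a description of letters.

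Rtkn2 is listed in the scanner files under an older name. Its brightest probe read 2.75, 2.68, 2.78, 2.87 and 2.78 in room air and 2.55, 2.67, 2.60, 2.62 and 2.63 with smoke. The groups were apart by a narrow margin, between replicate 2 of both groups. The difference of -0.16 (SE 0.05) did not pass the test (adjusted p = 0.0734), and with ratios scaled between arrays it was -0.03 (adjusted p = 0.952). The other probes of Rtkn2 gave -0.14 and -0.27 (adjusted p = 0.429 and 0.331), lower with smoke on 5 and on 4 of 5 slides, and the second of these was well above background in green on 2 arrays.

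Akap5 is a scaffold that holds protein kinase A and calcineurin at the membrane. It read 5.84, 5.48, 5.89, 5.43 and 5.50 in room air and 5.45, 5.41, 5.53, 4.94 and 5.38 with smoke. The groups overlapped, with room air replicates 1 and 3 above the rest and smoke replicate 4 far below. The difference of -0.29 (SE 0.13) did not pass the test (adjusted p = 0.253), and with the scanner's own log ratio it turned to 0.01. Akap5 differed by -0.18 without smoke replicate 4 and by -0.02 with ratios scaled between arrays. All 5 slides were lower with smoke, by -0.40, -0.07, -0.36, -0.49 and -0.11, and with the slide as a block Akap5 passed (adjusted p = 0.0356), in a fit where 6.3% of all genes fell. Of 6 partners and relatives of Akap5, Akap12, another scaffold of protein kinase A, fell by 0.87 (adjusted p = 4.63e-05). It read 2.01, 2.00, 2.04, 1.68 and 1.95 in room air and 1.03, 1.07, 1.22, 0.97 and 1.06 with smoke, with the groups apart.

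Aqp5 is the water channel of the apical membrane of type 1 cells. It read 4.51, 4.21, 4.42, 4.09 and 4.50 in room air and 4.28, 3.87, 4.31, 3.75 and 4.37 with smoke. The groups overlapped, and replicates 2 and 4 were the low lungs of both. The difference of -0.23 (SE 0.13) did not pass the test (adjusted p = 0.434), while within slides it was -0.24, -0.35, -0.11, -0.34 and -0.12 and the fit with slides as blocks put it past the threshold (adjusted p = 0.0266). Aqp5 differed by -0.14 without smoke replicate 4 and by -0.03 with ratios scaled between arrays (adjusted p = 0.676 and 0.976). Of 10 other aquaporins 1 fell, Aqp11, by 0.25 (adjusted p = 0.00837), and none rose, with a median of 0.01. The call of Aqp11 was lost with median centring (-0.37, adjusted p = 0.0715) and with the red channel alone at the 75th percentile (-0.45, adjusted p = 0.131). Of the 10, 6 were well above background in red on all arrays.

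Clic5, a chloride intracellular channel protein that links the membrane to the cytoskeleton, read 6.40, 6.54, 6.40, 6.14 and 6.30 in room air and 6.25, 6.48, 6.30, 5.69 and 6.23 with smoke. The groups overlapped, and replicate 4 was the lowest lung in both. The difference was -0.17 (SE 0.13, adjusted p = 0.618), and it turned to 0.13 with ratios scaled between arrays. Without smoke replicate 4 it was -0.04. The second Clic5 probe gave -0.31 (SE 0.12, adjusted p = 0.161), lower with smoke on 5 of 5 slides, and was past the threshold in the fit with slides as blocks (adjusted p = 0.0164). The third was well above background in red on 3 of 10 arrays and gave 0.03. None of 4 other Clic genes passed the test, with a median of 0.03.

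Ager is the receptor for advanced glycation end products, a surface receptor that is very abundant in type 1 cells. It read 4.88, 4.84, 5.12, 4.44 and 4.93 in room air and 4.94, 5.25, 4.90, 4.30 and 4.95 with smoke. The groups overlapped throughout, and replicate 4 was the lowest lung of both. The difference was 0.03 (SE 0.17, 95% confidence interval -0.33 to 0.39, adjusted p = 0.969), with 2 of 5 slides lower, and it turned to -0.04 with median centring and to -0.31 and -0.37 with the red channel alone. The green signal of the Ager probe was lower with smoke as well, on 5 of 5 slides. Neither channel alone passed the test for Ager, and the cause was not tested. Of 8 genes for ligands of Ager and its adaptor, 1 rose and none fell, with a median of 0.09. Hmgb1, a ligand, fell in the fit with slides as blocks (-0.23, adjusted p = 0.0256) and did not pass without them (adjusted p = 0.171). The other alternatives were not run for it. The gene that rose, S100a4, read -3.48, -4.42, -4.55, -4.35 and -4.32 in room air and -3.36, -3.62, -3.48, -3.58 and -3.55 with smoke. Room air replicate 1 lay among the smoke lungs, and S100a4 rose by 0.71 (adjusted p = 0.0275), a call lost without any 1 of 8 arrays (adjusted p from 0.0526 to 0.0746), those other than room air replicate 1 and smoke replicate 2. It was also lost with median centring (0.67, adjusted p = 0.0807) and with ratios scaled between arrays (0.53, adjusted p = 0.313).

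Pdpn, podoplanin, is a mucin-like protein of the apical surface. It read 0.64, 0.46, 0.57, 0.42 and 0.48 in room air and 0.64, 0.43, 0.61, 0.55 and 0.72 with smoke. The groups overlapped, and smoke replicate 5 was the highest lung. The difference was 0.08 by both probes (SE 0.06 and 0.07, adjusted p = 0.638 and 0.680), and for the brighter one it turned to -0.04 with median centring. Of 6 partners of Pdpn, Cd9, a tetraspanin, rose by 0.44 (adjusted p = 0.00143) and none fell, and the call of Cd9 was lost with median centring (0.38, adjusted p = 0.212), with the red channel alone at the 75th percentile (0.44, adjusted p = 0.0554) and with the mean of all its probes (0.15, adjusted p = 0.0517).

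Hopx is a small homeodomain protein that does not bind DNA itself. It read 4.71, 4.53, 4.81, 4.36 and 4.61 in room air and 4.65, 4.83, 4.53, 4.12 and 4.60 with smoke. The groups overlapped, smoke replicate 4 was the lowest lung and smoke replicate 2 the highest. The difference of -0.06 (SE 0.12, adjusted p = 0.894) turned to 0.16 with ratios scaled between arrays and to 0.05 without smoke replicate 4. Of the partners of Hopx, Srf differed by -0.26 and Hdac2 by -0.04, neither past the threshold (adjusted p = 0.165 for Srf), while with slides as blocks Srf was past it (adjusted p = 0.0461).

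**Figure D3:**
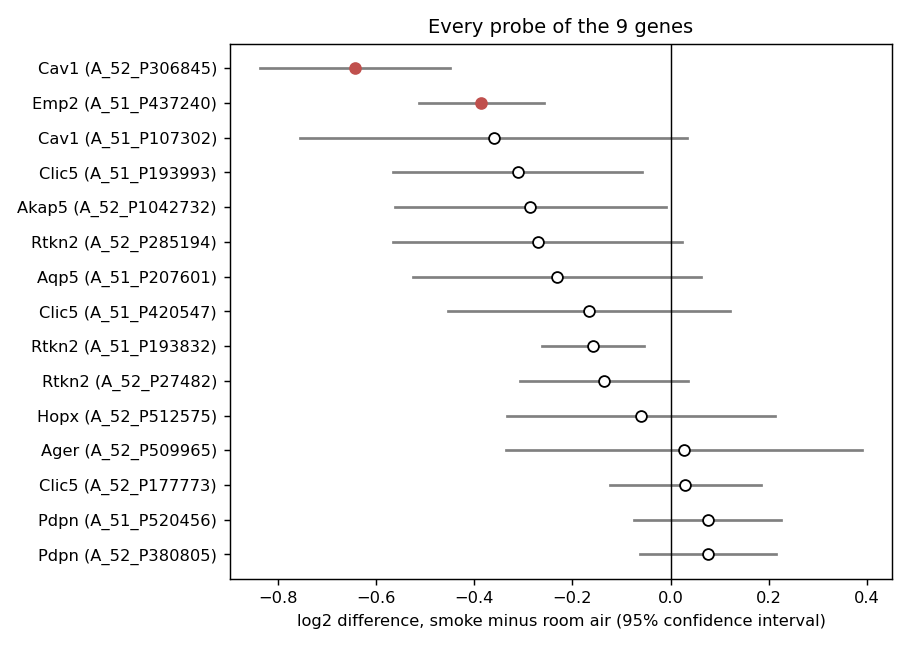
Log2 difference, smoke minus room air (horizontal axis), of all 15 probes of the 9 genes, with 95% confidence intervals as bars; filled points passed the test over all probes. The brighter Cav1 probe, at -0.64, and Emp2, at -0.39, are filled, and both Pdpn probes lie at 0.08, though the brighter turned to -0.04 with median centring.

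**Figure D4:**
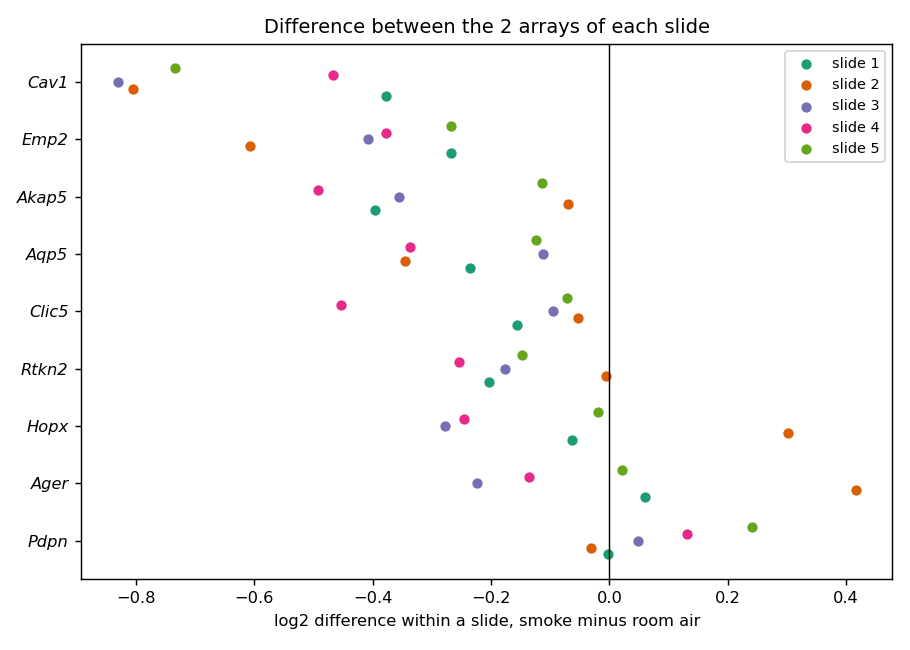
Log2 difference between the smoke and the room air array of each of 5 slides (horizontal axis, points coloured by slide) for the brightest probe of each of the 9 genes. Cav1 lies between -0.83 and -0.38 on all slides, and Ager lies on both sides of 0, from -0.22 to 0.42.

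The plot of all probes shows how far the probes of 1 gene differ, and the plot by slide shows 6 members, Cav1, Emp2, Akap5, Aqp5, Clic5 and Rtkn2, below 0 on every slide, which held for 11.9% of all genes. The members also differed in how they moved together. After each group's mean was subtracted, Pearson's r over the 10 arrays was 0.975 for Ager and Hopx, 0.885 for Clic5 and Ager, and 0.855 for Clic5 and Hopx. For Emp2 and Cav1, the members that fell, it was 0.402, and for Rtkn2 and Emp2 it was -0.458. The arrays share slides and the green reference channel, so these values are a description.

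The red channel alone, as log2 processed signal minus the 75th percentile of its array, gave larger differences for several members. Akap5 passed the test on that scale at -0.58 (adjusted p = 0.0461) and Rtkn2 at -0.38 (adjusted p = 0.0315), beside Cav1 at -0.51 and Emp2 at -0.44 (adjusted p = 0.0337 and 0.0459). Hopx read 6.22, 6.14, 6.24, 6.43 and 6.50 in room air and 5.83, 5.79, 5.67, 5.91 and 6.14 with smoke. Its groups were just apart on that scale, and it differed by -0.44 (adjusted p = 0.0837), a difference that passed after normexp and quantile normalization of the red channel (-0.44, adjusted p = 0.0029). Ager read 5.41, 5.50, 5.93, 5.51 and 5.75 in room air and 5.19, 5.31, 5.42, 5.30 and 5.31 with smoke. All smoke lungs except replicate 3 were below the lowest room air lung, and the difference of -0.31 did not pass (adjusted p = 0.228). The members' median difference was -0.38 in the red channel at the 75th percentile and -0.43 after quantile normalization, against -0.02 with ratios scaled between arrays.

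The green channel, scaled to its own 75th percentile, also differed for several members, and the ratios depend on it. It was lower with smoke on all 5 slides for Akap5 (-0.59), Ager (-0.38), Hopx (-0.38), Rtkn2 (-0.25) and Clic5 (-0.16), as it was for 665 of 27669 genes. For Aqp5 it differed by -0.10, for Emp2 by -0.03 and for Pdpn by 0.01, while for Cav1 it was higher on all 5 slides, by 0.14. None of these passed the test in green, where 6 genes did, all of them higher with smoke (limma). Ratios of Akap5, Ager, Hopx, Rtkn2 and Clic5 were nearer to 0, or turned, beside their differences in red, and the cause was not tested.

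**Figure D5:**
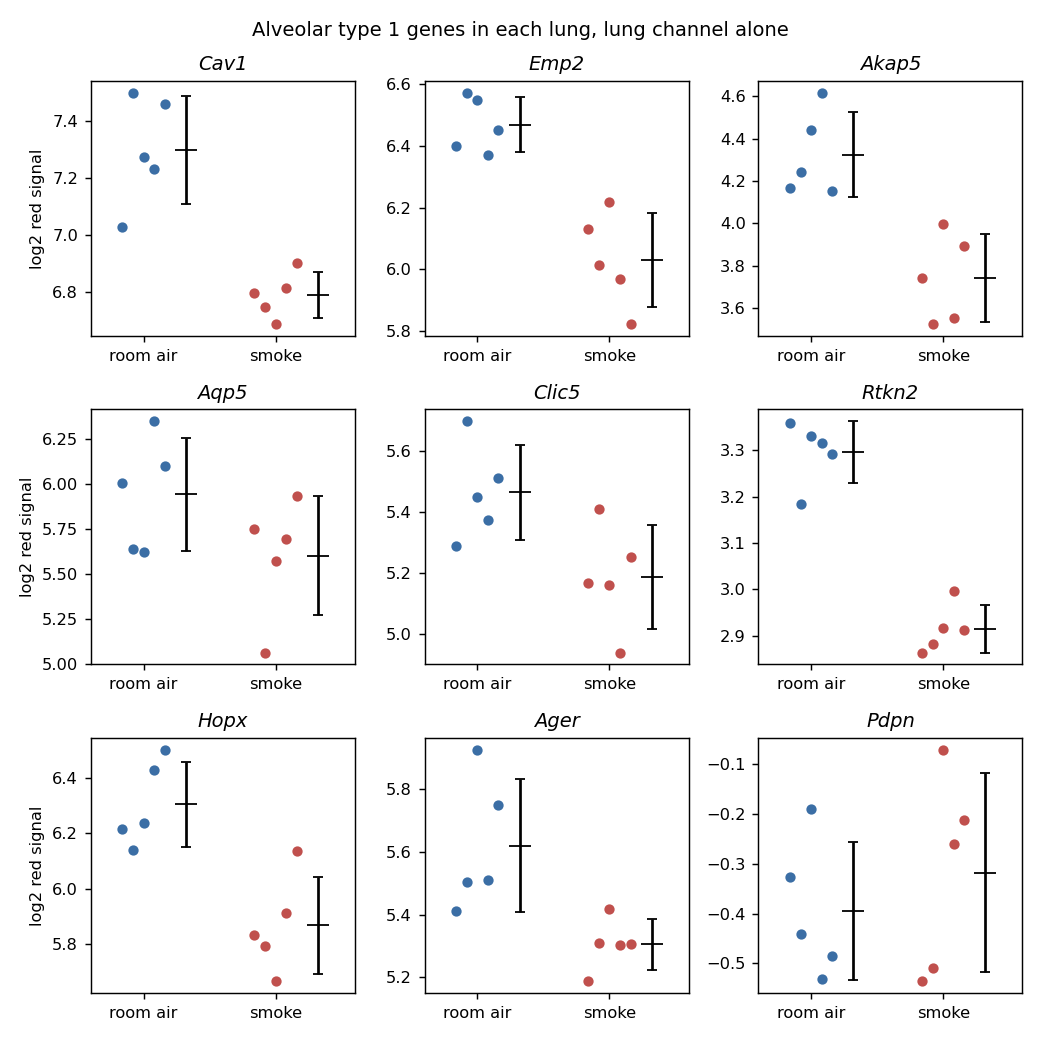
Log2 processed red signal minus the 75th percentile of the array (vertical axes, each with its own range) of the 9 alveolar type 1 genes in 5 room air lungs (blue) and 5 smoke lungs (red), by the brightest probe of each gene. Points are lungs and black bars are the mean and SD; Hopx smoke lungs lie at 5.67 to 6.14, at or below the lowest room air lung at 6.14, while its log2 ratios overlap.

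A second list held 24 further genes used as markers of type 1 cells, of which 23 were measured, Cav2 among them as among the caveolae genes. Of these, 4 fell and none rose, with a median of -0.15 and 20 lower with smoke. Of all 27669 genes, 3.27% fell and 14362 were lower. Vegfa, a growth factor for the capillary, read 2.18, 1.94, 1.97, 1.90 and 1.88 in room air and 1.24, 1.40, 1.38, 1.41 and 1.19 with smoke. Its groups were far apart, and it fell by 0.65 (SE 0.07, adjusted p = 0.000202). Flrt3, an adhesion protein, fell by 0.46, Tspan8, a tetraspanin, by 0.42 and Sema3e, a guidance signal, by 0.37 (adjusted p = 0.0236, 0.0255 and 0.0112). With the slide as a block 10 of 23 fell, where 6.3% of all genes fell. All 3 of these smaller calls were lost with ratios scaled between arrays, at -0.30, -0.30 and -0.28 (adjusted p from 0.24 to 0.388), and those of Tspan8 and Sema3e also with median centring (-0.54 and -0.49, adjusted p = 0.16 and 0.0522) and with the red channel alone (adjusted p from 0.0557 to 0.217). Flrt3 also lost its call without room air replicate 2 or 3 or smoke replicate 1 or 5 (adjusted p from 0.0501 to 0.0614), and Tspan8 without room air replicate 3 or 5 or smoke replicate 3 or 4 (adjusted p from 0.0506 to 0.0611).

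Of 15 regulators of the type 1 cell, around Nkx2-1 and the YAP and TEAD proteins, 4 fell and none rose, with a median of -0.25. Of all genes, 3.27% fell. Tead1, a DNA-binding partner of YAP, read 2.09, 1.78, 1.48, 1.90 and 1.63 in room air and 1.39, 1.17, 1.18, 1.33 and 1.28 with smoke. The groups were apart, and Tead1 fell by 0.50 (adjusted p = 0.0115), a call lost with the mean of all its probes (-0.18, adjusted p = 0.15). Lats2, a kinase that restrains YAP, fell by 0.36, Amotl2, which binds YAP, by 0.34 and Tead4 by 0.25 (adjusted p = 0.00399, 0.00624 and 0.0358). The call of Tead4 was lost without any 1 of 7 arrays (adjusted p from 0.0607 to 0.0898), all but room air replicate 1 and smoke replicates 3 and 5, and with the scanner's own log ratio (-0.33, adjusted p = 0.149), median centring (-0.37, adjusted p = 0.0695) and ratios scaled between arrays (-0.19, adjusted p = 0.336). With the red channel alone at the 75th percentile none of the 4 passed, at -0.41 for Tead1, -0.33 for Lats2, -0.36 for Amotl2 and -0.29 for Tead4 (adjusted p from 0.0564 to 0.505), and after quantile normalization only Tead1 did. Yap1 and its relative Wwtr1 differed by -0.48 and -0.30 without passing (adjusted p = 0.163 and 0.501). Without 1 array they lay between -0.62 and -0.32 and between -0.46 and -0.20, and Yap1 passed without room air replicate 2 (adjusted p = 0.0432). Nkx2-1 differed by 0.03 (adjusted p = 0.943), which turned to -0.07 with median centring.

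Markers of other lung cells moved as well, and their part in the members' differences was not tested. Summed red signal, in units of the 75th percentile of each array, was 464, 522, 510, 523 and 550 for the 9 members in room air and 386, 363, 379, 378 and 408 with smoke, with the probe of Cav1 the brightest. The sum over 12 blood endothelial genes, whose brightest probe was that of Cldn5, was 294, 329, 341, 352 and 361 in room air and 240, 260, 245, 235 and 256 with smoke. Both sums had the groups apart. Mean sums were also lower with smoke for caveolae genes (374 and 282), smooth muscle and pericyte genes (127 and 100) and fibroblast genes (596 and 451). The groups overlapped for the fibroblast genes. Mean sums were higher with smoke for airway epithelium (1117 and 1196) and general epithelium (35.9 and 39.6). Of the endothelial genes, 11 were lower, with a median of -0.12, and 2 fell, Ednrb by 0.78 and Pecam1 by 0.41. Of all 27669 genes, 14362 were lower and 3.27% fell. Ednrb lost its call with the scanner's own log ratio (-0.92, adjusted p = 0.307) and with ratios scaled between arrays (-0.64, adjusted p = 0.0694). The call of Pecam1 (adjusted p = 0.0488) was lost without any 1 of 7 arrays (adjusted p from 0.0761 to 0.119), all but room air replicates 1 and 4 and smoke replicate 3, and with 6 other settings of background, normalization, probes or spots (adjusted p from 0.0527 to 0.313).

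For 13 type 2 cell genes, the sum was 2694, 3505, 2284, 3043 and 3621 in room air and 3172, 4662, 3156, 2816 and 4760 with smoke. The brightest probe was that of Sftpc, which was saturated on 1 of 10 arrays, while the log2 ratio of Sftpc differed by -0.13 (adjusted p = 0.838) and turned to 0.15 with ratios scaled between arrays and to 0.16 in red at the 75th percentile. The groups overlapped, none of the 13 passed the test, and the median difference was 0.15. With the red channel alone Sftpd passed, at 1.12 at the 75th percentile and 0.86 after quantile normalization (adjusted p = 0.00411 and 0.00777). For 9 macrophage genes, the brightest probe being that of Chil3, the sum was 47.0, 53.9, 52.9, 50.8 and 56.6 in room air and 191.5, 202.4, 189.3, 173.1 and 213.2 with smoke. Every smoke lung was far above every room air lung, and 5 of 9 rose: Marco by 2.60, Chil3 by 2.12, Cd68 by 2.06, Itgax by 1.34 and Mrc1 by 1.14, with a median of 1.14 over the 9. The call of Mrc1 was lost with the scanner's own log ratio (0.91, adjusted p = 0.121). Fabp1 went the other way at -0.66 without passing (adjusted p = 0.0628). It was -0.03 with the scanner's own log ratio and passed with dim probes left out (adjusted p = 0.0444), without room air replicate 1 (-0.73, adjusted p = 0.0445) and without smoke replicate 3 (-0.80, adjusted p = 0.0203). Siglecf and Krt79 differed by 0.25 and 0.35 (adjusted p = 0.312 and 0.291), and Ear1 by 0.01, turning to -0.10 with median centring. Of 10 genes of transitional epithelium, an intermediate between type 2 and type 1 cells, Lgals3, which macrophages also make, rose by 2.00, Krt19 by 0.29 and Krt8 by 0.25, while Hbegf fell by 0.58. Krt8 lost its call without any 1 of 6 arrays (adjusted p from 0.0576 to 0.079), room air replicates 2, 4 and 5 and smoke replicates 1, 2 and 3, and with 4 other settings of normalization or channel (adjusted p from 0.0791 to 0.542). Krt19 lost its call with median centring (0.20, adjusted p = 0.397) and with the red channel alone (0.37 and 0.29, adjusted p = 0.223 and 0.242), and Hbegf with the red channel alone at the 75th percentile (-0.62, adjusted p = 0.0827).

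Among supporting cells, 3 of 8 fibroblast genes fell, Pdgfra and Dcn by 0.49 each and Tcf21 by 0.35, with a median of -0.20. Tcf21 (adjusted p = 0.0492) lost its call without any array but room air replicate 4 (adjusted p from 0.0575 to 0.122), without background correction, with median centring and with scaled ratios (adjusted p from 0.109 to 0.871), and turned to 0.01 with the scanner's own log ratio. Of 6 genes of smooth muscle and pericytes, Pdgfrb fell by 0.46 and Acta2 by 0.45, with a median of -0.33, and Acta2 lost its call with the red channel alone at the 75th percentile (-0.39, adjusted p = 0.17). Of 5 mesothelial genes, which were all lower with a median of -0.42, Upk3b fell by 0.57. No gene passed among 6 of general epithelium (median 0.10), 7 of airway epithelium (0.04), 5 of lymphatic endothelium (-0.05) and 7 of other leukocytes (0.16).

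Room air replicate 1 stood apart from the other room air lungs for several leukocyte genes as it did for the dimmer Cav1 probe, Cavin2 and S100a4. Summed red signal of the 7 leukocyte genes, whose brightest probe was that of S100a9, was 204.9, 55.3, 47.1, 49.9 and 71.8 in room air and 114.7, 91.2, 74.7, 83.0 and 94.3 with smoke. The log2 ratio of S100a8 was 4.39 in that lung and 1.49 to 2.09 in the other room air lungs, and that of Retnlg was 3.92 and 2.11 to 2.68. The lymphocyte genes did not stand apart upward, with Cd3e at -0.08 against -0.42 to 0.04 and Cd79a at 0.16 against 0.23 to 0.34. Of the macrophage genes, Marco was 4.86 in that lung and 2.49 to 3.32 in the others, while Cd68 was -1.16 and -1.41 to -1.18. Without room air replicate 1, S100a8 was past the threshold at 0.97 (adjusted p = 0.00458), against 0.47 with all lungs (adjusted p = 0.718), and so were Coro1a at 0.58 and Ptprc at 0.45 (adjusted p = 0.00988 and 0.00202). Retnlg went the other way, at -0.43 with all lungs (adjusted p = 0.557) and between -0.575 and -0.122 without 1 array. The cause was not tested.

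With the slide as a block, 4 of the 9 members fell and none rose, where 6.3% of all genes fell and 7.48% rose. In that fit 5 of 8 caveolae genes fell, 5 of 15 regulators, 3 of 12 endothelial genes and 3 of 8 fibroblast genes, while of 6 partners and relatives of Akap5 2 fell and 1 rose. Type 2 cell genes then passed as well, 3 of 13, Muc1 at 0.38, Sftpd at 0.57 and Napsa at 0.17 (adjusted p = 0.00128, 0.0441 and 0.0494), all higher with smoke. Of the leukocyte genes, Coro1a at 0.47 and Ptprc at 0.35 passed (adjusted p = 0.0116 and 0.0285), and Coro1a also with the mean of its probes (0.51, adjusted p = 0.0295). Of 5 mesothelial genes 4 fell, Msln at -0.33, Wt1 at -0.42 and Lrrn4 at -0.47 (adjusted p = 0.00403, 0.0259 and 0.0349) beside Upk3b. Over all 22 alternatives, the block among them, Wt1 passed in 8, Msln in 3, Lrrn4 in 2 and Muc1 in 3. Of 6 genes of smooth muscle and pericytes 4 fell, Pdgfrb, Acta2, Cnn1 at -0.35 (adjusted p = 0.00887), which passed in 6 alternatives, and Myh11 at -0.20 (adjusted p = 0.0339), which turned to 0.01 with the scanner's own log ratio. Fabp1 fell in the same fit (adjusted p = 0.0111), and apart from the 10 further type 1 genes given above, at most 1 more gene passed in each other list.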

How the data were processed

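Lung RNA of 5 smoke and 5 room air mice was read on 10 arrays. The deposited scanner files give each spot's intensity in red and green, as written by Agilent Feature Extraction (9.5.3.1 per the file headers, 9.1 per the labels). The deposited files also give the scanner's log10 ratio of red over green. The authors' table holds processed values of log2 size, with scale and channel not stated, and served as an alternative.

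Intensities were corrected with normexp (offset 50) and loess within arrays in limma 3.58.1 and R 4.3.3. Outlier spots were left out, and 43379 spots were averaged to 41174 probes, of which 41173 were tested. Smoke and room air were compared by two-sided limma tests, and p-values were adjusted over every probe tested by the method of Benjamini and Hochberg, with a threshold of 0.05. A gene was read by its probe with the brightest mean red signal. Current names came from accessions for 22951 probes, from current symbols for 6659 and from synonyms for 3109, and 8455 kept the name in the files.

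Each of the 5 slides held the smoke and the room air array of 1 number. Over genes, after group means were subtracted, arrays of the same number correlated at 0.157 to 0.550 and others at a median of -0.123 and at most 0.205, so the slide was used as a block in an alternative.

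Members and lists were chosen with earlier results of these data known. Named genes were all members, list genes past the threshold, any gene of a list of at most 12 measured genes where that list is described, and the 5 genes most like the members' mean on each of 2 measures. Beyond these, Yap1, Wwtr1 and Nkx2-1, and Sftpc, Muc1, Sftpd and Napsa of the type 2 cell list, were named after their values were seen, and so were genes of shorter lists that did not pass at first but did with the slide as a block. Cyp1a1, Cyp1b1, Nqo1, Ahrr and Tiparp were chosen to check the labels, for what is known of them, after the exchange in the authors' table was seen and the study's paper had been read. Alternatives were run for 76 genes, the members, list genes past the threshold and other named ones. They varied the test, block, background, normalization, channel, probes, spots, table and arrays. The steps were tested on simulated data. The number of arrays limits the precision.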

Additional observations from a re-analysis of the deposited data

Results flagged for a closer look

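In 164 groups of 5 lungs examined, 16 held a lung whose gap to its nearest neighbour was a large share of the group's whole range, and chance alone gives about 1 in 20 groups. The values are that share. Among the members, room air replicate 1 was lowest for the dimmer Cav1 probe (0.802), smoke replicate 1 was lowest for a second Rtkn2 probe (0.933), and smoke replicate 4 was lowest for Akap5 (0.752). Room air replicate 1 was also highest for S100a4 (0.784) and S100a8 (0.795) and lowest for Cavin2 (0.777). Smoke replicate 2 was lowest for Emp3 (0.922) and Lrrn4 (0.731), and room air replicate 4 was lowest for Akap12 (0.755) and Cavin4 (0.804). Smoke replicate 5 was highest for Pdgfra (0.72), smoke replicate 4 was lowest for Marco (0.821) and Cnn1 (0.727), and smoke replicate 3 was highest for Mrc1 (0.835). Smoke replicate 3 was also highest for Cyp1a1 (0.72), and room air replicate 2 was highest for Tiparp (0.854).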

How the results depend on the processing

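The brightest probes of 76 genes, the 9 members among them, were examined under 22 alternatives, except Retnlg, which had 21, without the authors' table. Over single genes and alternatives, 1363 results kept their direction and their side of the threshold, 146 kept their direction and no longer passed, 49 kept it and newly passed, and 113 turned. Cav1 passed in 20 of 22 alternatives and Emp2 in 18. The count of probes past the threshold, 2906 (1793 higher and 1113 lower, with 7479 at an unadjusted p under 0.05), lay between 2329 and 2992 where no other value is given here.

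With the exact Wilcoxon test 0 probes, 0 members and 0 further type 1 genes passed after adjustment, while 5446 probes had an unadjusted p under 0.05. The smallest p that 5 against 5 lungs allow is 0.00794. With the slide as a block, 5019 probes, 4 members and 10 further genes passed, and of the 76 genes 15 newly passed, Aqp5 and Akap5 among them, and none was lost. With median centring in place of loess, 1434 probes (687 higher and 747 lower, so 47.9% higher against 61.7%), 1 member and 2 further genes passed. With ratios scaled between arrays, 1 member and 1 further gene passed. With the red channel alone, 1759 probes, 4 members and 2 further genes passed at the 75th percentile, and 5 members after quantile normalization. Leaving out each array in turn gave 2102 to 3660 probes, 2 to 2 members and 2 to 6 further genes, the 2 without room air replicate 3. The cause of these changes was not tested.

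Directions turned without background correction for Cavin4 (-0.011). With the scanner's own log ratio they turned for Akap5 (0.0076), Tcf21 (0.0082), Nkx2-1 (-0.011), Cavin4 (-0.16), Ear1 (-0.041) and Myh11 (0.0057). With median centring in place of loess they turned for Ager (-0.043), Pdpn (-0.035), Nkx2-1 (-0.072), Cav3 (-0.071), Cavin4 (-0.077) and Ear1 (-0.097). With ratios scaled between arrays they turned for Hopx (0.16), Clic5 (0.13), Cavin4 (-0.036) and Sftpc (0.15). With the red channel alone, 75th percentile they turned for Ager (-0.31), Cavin4 (-0.18), Emp1 (0.0082) and Sftpc (0.16). With the red channel alone, normexp and quantile they turned for Ager (-0.37) and Cavin4 (-0.048). Without 1 array, Ear1 lay between -0.074 and 0.10, Tiparp between -0.091 and 0.017, Hdac2 between -0.16 and 0.064, Ager between -0.073 and 0.17, Nkx2-1 between -0.013 and 0.14, Cav3 between -0.067 and 0.20, Cavin4 between -0.030 and 0.11, Hopx between -0.13 and 0.047, Sftpc between -0.26 and 0.020 and Pacsin2 between -0.088 and 0.014. The cause was not tested.

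With the authors' table, whose column medians ran from 7.323 to 8.027 and whose scale and centring are not stated, 13 probes, 0 members and 0 further genes passed by limma. The log2 differences that turned there were Aqp5 0.30, Hopx 0.46, Cav1 0.27, Rtkn2 0.39, Akap5 0.71, Emp2 0.31, Clic5 0.28, Lgals3 -0.80, Sema3e 0.23, Amotl2 0.26, Pecam1 0.70, Itgax -1.49, Krt19 -0.13, Flrt3 0.43, Cavin3 0.16, Cavin1 0.17, Ednrb 0.96, Pmp22 0.27, Acta2 0.24, Mrc1 -1.29, Vegfa 0.41, Krt8 -0.048, Tcf21 0.95, Aqp11 0.32, Pdgfra 0.29, Hbegf 0.36, Tead4 0.20, Chil3 -0.93, Upk3b 0.42, S100a4 -0.35, Emp3 -0.27, Tead1 0.18, Cavin2 0.20, Pdgfrb 0.28, Ehd2 0.35, Cd9 -0.17, Akap12 0.43, Lats2 0.21, Tspan8 0.34, Marco -2.58, Cd68 -1.09, Dcn 0.32, Cav2 0.28, Yap1 0.34, Wwtr1 0.24, Nkx2-1 -0.050, Pacsin2 0.16, Emp1 0.042, Srf 0.19, Hdac2 0.54, Ear1 -0.13, Siglecf -0.58, Krt79 -0.31, S100a8 -0.20, Sftpd -0.81, Napsa -0.071, Msln 0.21, Wt1 0.45, Lrrn4 0.36, Cnn1 0.34, Myh11 0.49, Coro1a -0.17, Ptprc -0.071, Cyp1a1 -1.84, Cyp1b1 -1.73, Nqo1 -1.11, Ahrr -1.56 and Tiparp 0.13. Each column of that table followed the same-numbered array of the other group. The number of arrays limits the precision, and the third Clic5 probe was well above background in red on 3 of 10 arrays.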

Other observations

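Among 14035 named genes well above background in red on all 10 arrays, those whose log2 ratio most resembled the mean of the 9 alveolar type 1 genes were Hdc, Tepp, Cidec, Chia1 and Cytl1, with Pearson's r from 0.952 to 0.965 over 10 arrays. After each group's mean was subtracted they were Gpihbp1, a protein of capillary endothelium, Plvap, a protein of endothelial openings, Rab15, Nr1h3 and Tppp3, with r from 0.973 to 0.985. The arrays share slides and the green reference channel, and the values are a description.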
